A study of Mus musculus with 2 samples.

Results

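Potassium channels and the related hyperpolarisation-activated cation (HCN) channels were examined as 1 gene family in the open chromatin of the mouse right cerebral cortex. The members were the protein-coding genes of chromosomes 1 to 19 in the GENCODE M21 annotation whose symbol begins with Kcn, followed by a subfamily letter code and a number, together with the HCN channel genes. This gave 95 of the 20807 protein-coding genes of those chromosomes. By role they were 29 voltage-gated pore genes, 10 modifying pore genes, 8 calcium- or sodium-activated genes, 15 inward rectifiers, 14 two-pore-domain genes, 15 auxiliary subunits and 4 pacemaker genes. All samples came from male B6CASTF1/J mice, an F1 hybrid of the C57BL/6J and CAST/EiJ strains, at 2 months of age, with no treatment named. There was 1 group of 2 DNase-seq libraries, replicate 1 from the animal labelled 5 and replicate 2 from the animal labelled 6, although both carry the same donor record. With a single group there is no contrast, so each result is a value in each library, set beside all protein-coding genes.

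Potassium channels let potassium leave the cell, which sets the resting potential, ends action potentials and limits repetitive firing. Voltage-gated and calcium-activated channels open during activity, inward rectifiers and two-pore-domain channels carry resting current, and auxiliary subunits change how the pores gate or where they are placed. HCN channels pass an inward cation current at negative potentials and shape dendritic integration and rhythmic firing in cortical neurons. DNase-seq sequences the ends left by DNase I, a nuclease that cuts accessible chromatin. A peak thus marks accessible DNA, mostly at promoters and enhancers, and a footprint marks a short protected stretch within it. Peak height is the authors' signal value, on a scale the sources used here do not state.

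The stricter peak set held 91818 peaks in replicate 1 and 75245 in replicate 2, with median heights of 0.932 and 0.806 and a median width of 200 bp in both. Some peaks overlap or lie within others, and each was counted, so numbers of peaks are not numbers of separate sites. No read depth is given, so how precise a single peak is cannot be stated. A promoter peak was any peak with a base at most 1000 bp from an annotated transcript start of the gene. A gene was called in both libraries when each had a promoter peak at it, whether or not these peaks overlapped. Starts inside the gene count too, so the tallest peak can lie far from the 5′ end, as at Kcnc1, Kcnd3, Kcnk10, Kcnn1, Kcnn2 and Kcnu1. The tissue label was set against marker lists. All 7 general neuronal genes had a promoter peak in both libraries, as did 5 of 8 genes of excitatory cortical neurons, and the remaining 3 had one in replicate 1. None of 5 liver genes and none of 6 microglial genes had one in either library. The counts were 2 of 7 for inhibitory neurons, 2 of 6 for oligodendrocytes and 3 of 6 for astrocytes in both libraries. Of 5 endothelial genes 2 had one in replicate 1 and none in replicate 2, and of 6 genes of heart and skeletal muscle 3 and 2 had one. Peaks of low height can come from weak accessibility in many cells or strong accessibility in few, and the 2 cannot be told apart in whole tissue.

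Most channel genes had an accessible promoter, and most of those promoters were low. A promoter peak was present at 72 of 95 members in replicate 1 (75.8%) and at 59 in replicate 2 (62.1%), a mean of 68.9% ± 9.68 (SD, n = 2). The background over all 20807 protein-coding genes was 64.7% in replicate 1 and 60.5% in replicate 2. In both libraries together 58 members had one (61.1%), against 60% of all genes, so the pooled share held by both was near the background. The members are longer genes, and by length class the shares per library differed from the background in both directions. Under 20000 bp they were 62.2% and 51.4%, against 51.2% and 47.3% of all genes. From 20000 to 100000 bp they were 76.5% and 58.8% against 77.8% and 73.4%. Over 100000 bp they were 95.8% and 83.3% against 87.8% and 82.9%. The libraries differed more over the channel genes than over the genome. Of the members with a promoter peak in replicate 1, 14 had none in replicate 2 (19.4%), against 7.33% of all such genes. In the other direction it was 1 member, Kcnh6, of 59, with a background of 0.937%. No promoter peak was found in either library at 22 members (23.2%), against 34.7% of all genes.

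**Figure D1:**
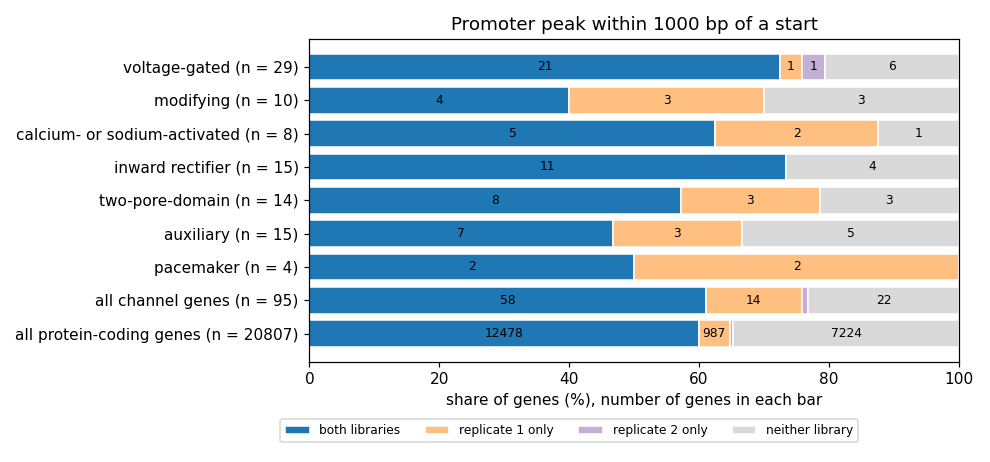
Share of genes in each role with a peak within 1000 bp of a transcript start, in percent, split into both libraries, 1 library and neither, with the number of genes printed in the larger bars. Inward rectifiers have 11 genes called in both and none called in 1 library only, while 2 of the 4 pacemaker genes and 3 of the 10 modifying genes were called in replicate 1 alone.

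Height set the channel genes apart from the rest of the genome more than presence did. The tallest promoter peak of a member had a median height of 1.43 in replicate 1 and 1.17 in replicate 2, a mean of 1.30 ± 0.188 (SD, n = 2). Over all protein-coding genes with a promoter peak the medians were 3.10 and 2.20, so the members' median lay below that of all genes in both libraries. The marker lists with promoter peaks also had medians below those of all genes. They were 2.85 and 2.01 for the general neuronal genes and 2.22 and 1.95 for those of excitatory neurons. Both lists stood above the members. Lower medians, from 2 to 4 genes each, were 1.47 and 1.07 for astrocytes and 1.43 and 1.04 for oligodendrocytes. They were 0.920 and 0.864 for inhibitory neurons and 0.638 and 1.03 for heart and skeletal muscle. A median below that of all genes was thus not particular to the channel genes. The members spanned 0.363 to 10.3 in replicate 1 and 0.261 to 6.37 in replicate 2. Above the median of all genes stood 5 of 72 members in replicate 1 (6.94%) and 6 of 59 in replicate 2 (10.2%). Heights of 3 or more were reached by 9.72% of members with a peak in replicate 1 and by 51.7% of all such genes. Between 1 and 2 the order was the other way, with 47.2% of members and 19.7% of all genes.

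**Figure D2:**
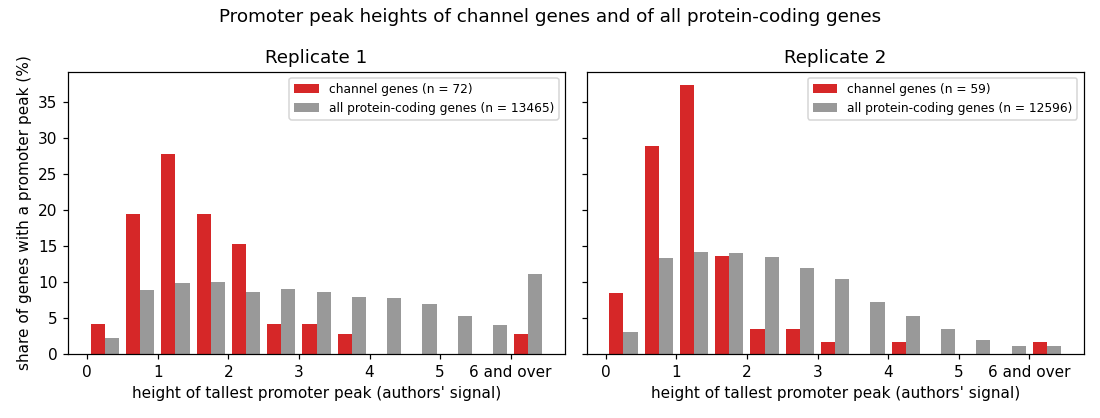
Height of the tallest promoter peak (authors' signal, bins 0.5 wide, the last open) against the share of genes with a promoter peak, in percent, for 72 and 59 channel genes (red) and 13465 and 12596 protein-coding genes (grey). The channel genes gather at low heights in both libraries, with medians of 1.43 and 1.17 against 3.10 and 2.20.

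Promoters shared with another gene were rare among the members. The tallest promoter peak lay within 1000 bp of a start of another protein-coding gene at 1 of 72 members in replicate 1 (1.39%) and 1 of 59 in replicate 2 (1.69%), Kcnab2 each time. Over all genes it was 19.6% and 20.5%. Such shared promoter peaks had medians of 4.37 and 2.95 over all genes. With them left out the medians of all genes were 2.78 and 2.00 and those of the members 1.42 and 1.16, so the members stayed lower.

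Whether a promoter was called in both libraries went with its height, in the members as in all genes. Below a height of 1 in replicate 1, 7 of 17 members had a promoter peak in replicate 2 (41.2%), against 52.7% of all genes in that range. From 1 to 2 it was 30 of 34 members (88.2%) against 90.1%, from 2 to 3 it was 14 of 14 against 99.2%, and from 3 upward 7 of 7. In the lowest range lay 23.6% of the members with a peak in replicate 1 and 11.1% of all such genes. At the 58 members called in both, the height in replicate 1 was a median 1.43 times that in replicate 2, and 1.49 times over all genes. This ratio takes the tallest promoter peak of each library. At some members, such as Kcnh3, Kcnh5, Kcnip3 and Kcnj8, the 2 tallest peaks did not overlap, so their paired heights come from different sites. Peaks shared by both libraries had a median ratio of 1.38 over all autosomes and 1.38 in the members' windows. These ratios cover only what was called in both libraries. Promoters called in 1 library only have no ratio, so they do not say how much the members' promoters as a whole differed.

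The promoter sequence of the members was also described apart from the peaks. In the 1000 bp around the 5′ end of the gene, the ratio of observed to expected CpG pairs had a median of 0.516 over the members and 0.568 over all genes. It was 0.624 for the 58 members with a peak in both libraries, 0.495 for the 14 with one in replicate 1 only and 0.271 for the 22 with none. RefSeq promoters (250 bases before to 50 after a start, same build) were matched for 69 of the 95 members, giving 94 promoters, beside 19174 of all protein-coding genes. They were searched on both strands for fixed letter strings. The CACCC box (CCACCC), a site type bound by Krüppel-like and Sp factors, was in 57.4% of the members' promoters and 34.2% of all. The GC box (GGGCGG) was in 48.9% and 48.3%. The ETS string (CCGGAAG), common at promoters of housekeeping genes, was in 3.19% of the members' promoters and 12.1% of all. The cAMP response element (TGACGTCA) and the NRF1 string (GCGCATGCG) were in none of the 94, against 2.36% and 2.47% of all promoters. The CCAAT box (CCAAT) was in 29.8% and 37.5%, the TATA box (TATAAA) in 5.32% and 12.1%, and an E-box type bound by NEUROD factors (CAGATG) in 20.2% and 14.4%. A match is a string of letters only, and members of 1 subfamily can share sequence.

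**Figure D3:**
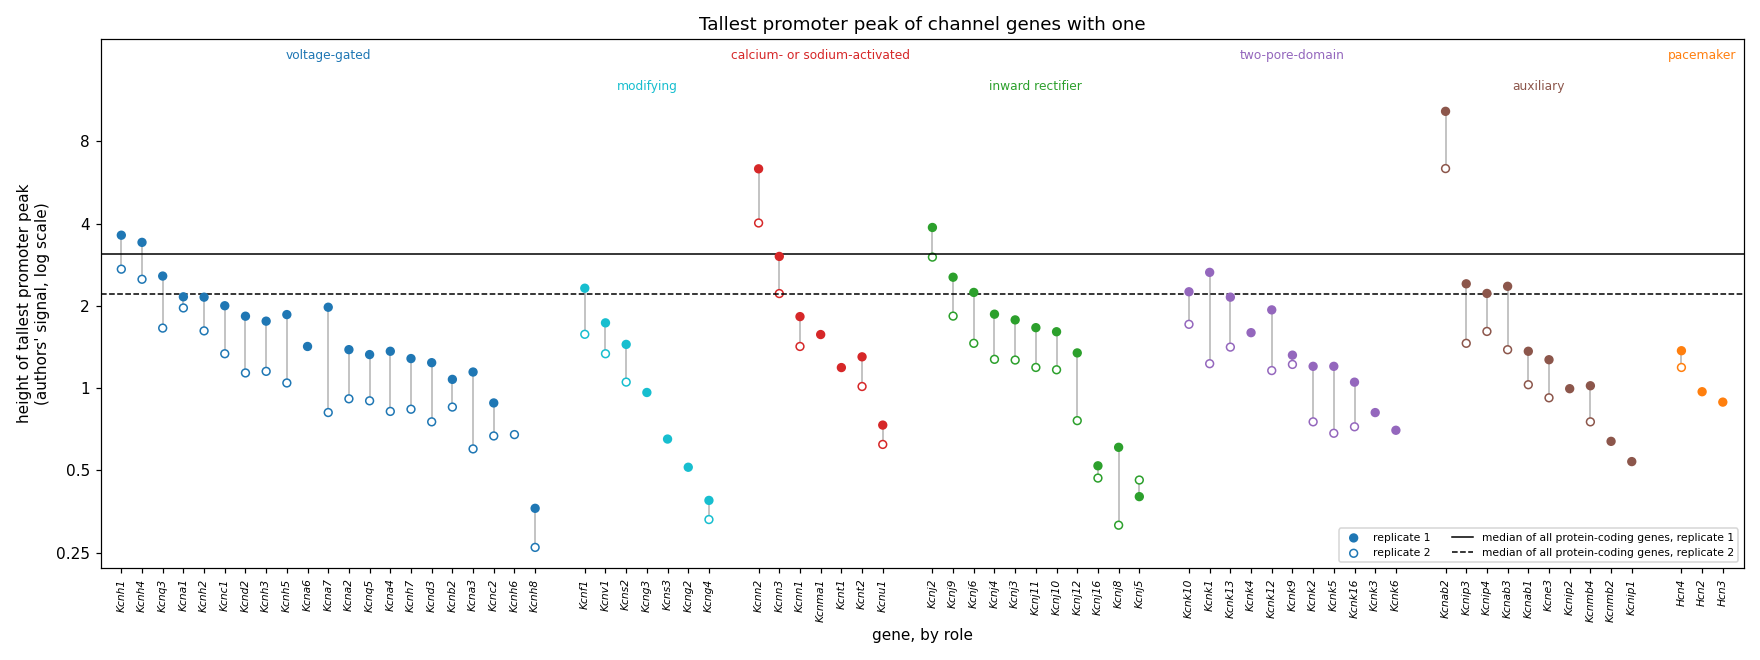
Height of the tallest promoter peak (authors' signal, log scale) of channel genes with one, by role, in replicate 1 (filled) and replicate 2 (open), a grey line joining the 2 values. The horizontal lines are the medians of all protein-coding genes, 3.10 (solid) and 2.20 (dashed), and few channel genes reach them, Kcnab2 and Kcnn2 being the tallest; 3 genes with a peak are not shown.

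Promoter peaks were found at 22 of the 29 voltage-gated pore genes in each library, 21 of them called in both, with median heights of 1.80 and 0.979. The tallest belonged to the ether-a-go-go family. Kcnh1 (chr1:192190774-192510159, plus strand), the founding ether-a-go-go gene, had a height of 3.63 in replicate 1 and 2.73 in replicate 2. Kcnh4 (chr11:100740376-100759942, minus strand), of the ether-a-go-go-like branch, had 3.42 and 2.50. Both exceeded the all-gene median in both libraries. The other Kcnh genes were lower. Kcnh2, the channel of the cardiac rapid delayed rectifier, had 2.15 and 1.62, Kcnh3 1.76 and 1.15, and Kcnh5 1.86 and 1.04. Kcnh7 had 1.28 and 0.837, and Kcnh8 had the lowest promoter of the voltage-gated group at 0.363 and 0.261. Kcnh6, with 0.676 in replicate 2, was the single member called in replicate 2 alone.

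Shaw-type genes encode fast channels that let neurons fire at high rates. The libraries were furthest apart in number of promoter peaks at Kcnc1, with 10 in replicate 1 and 1 in replicate 2, at heights of 2.00 and 1.34. At Kcnc1 the tallest peak of each library was at a start inside the gene, and replicate 2 had none at the 5′ end. Kcnc2, also of this fast type, had 0.882 and 0.668, but from different promoters. The replicate 1 peak lay at the 5′ end and the replicate 2 peak at a start inside the gene, where replicate 1 had 0.876. Kcnc4 had no promoter peak in either library.

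Shaker-type genes carry axonal and somatic delayed rectifier currents. Kcna1 led them with 2.16 and 1.97, from 7 and 5 promoter peaks. Kcna7 had 1.98 and 0.814, Kcna2 1.38 and 0.914, Kcna4 1.36 and 0.822, and Kcna3 1.15 and 0.599. Kcna6, next to Kcna1 on chromosome 6, had 1.42 in replicate 1 and none in replicate 2. Kcna5, in the same chromosome 6 cluster, and Kcna10, in the chromosome 3 cluster with Kcna2 and Kcna3, had no promoter peak in either library. Thus in each cluster accessible promoters stood beside one without a peak.

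Kcnb2 encodes a Shab-type delayed rectifier and was called in both libraries at 1.08 and 0.852, from peaks that did not overlap. The A-type channel genes Kcnd2 and Kcnd3, whose current delays firing, had 1.83 and 1.14 and 1.24 and 0.753. Kcnd3 (chr3:105452330-105674002, plus strand) had the most peaks around it of the voltage-gated genes, 21 in replicate 1 and 17 in replicate 2. Among the Kcnq genes, Kcnq3, a subunit of the neuronal M-current channel, had 2.57 and 1.66 and Kcnq5 1.33 and 0.898, while Kcnq1, mainly a channel of heart and epithelia, had none.

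The modifying genes encode electrically silent subunits that join Shab-type pores, and they had fewer promoters called in both libraries, 4 of 10, with 7 in replicate 1 and 4 in replicate 2. Kcnf1 (chr12:17172100-17176888, minus strand) was the tallest at 2.32 and 1.57. It had 5 peaks around it in replicate 1 and 12 in replicate 2, the most of the modifying genes by the mean of both libraries. Of its promoter, the tallest of this role, 30 bases are shown (mm10, chr12:17176691-17176720, minus strand). The GC box in capitals lies in a footprint seen in both libraries.
Kcnf1 promoter: gcgccggtggcaGGGCGGcggcagctgtgc
Kcnv1 (chr15:45106284-45114920, minus strand) followed with 1.73 and 1.34 and with 4 promoter peaks in each library. Kcns2 had 1.45 and 1.05, and Kcng4 0.388 and 0.330. At Kcng4 the promoter peaks of the libraries did not overlap. In replicate 1 alone Kcng3 had 0.964, Kcns3 0.651 and Kcng2 0.513. Kcng1, Kcns1 and Kcnv2 had no promoter peak in either library, and at Kcns1 the lowest false discovery rate was 0.000773 and 0.00153, the lowest of the 22 genes without a peak.

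Calcium- and sodium-activated channels link firing to its own after-effects. Kcnn2, the small-conductance channel that carries much of the after-hyperpolarisation in cortical pyramidal cells, had the second tallest promoter of all members, at 6.35 in replicate 1 and 4.02 in replicate 2. It also had 7 promoter peaks in each library, some of them overlapping in replicate 1. Only the tallest was high, and the next reached 1.88 in replicate 1 and 1.51 in replicate 2. Of all protein-coding promoters with a peak, 91.2% and 87.6% were lower than the tallest peak of Kcnn2. Kcnn3 (chr3:89520164-89675132, plus strand) had 3.04 and 2.22, with 48.9% and 50.3% lower, which places it at the middle of the genome. Kcnn4, the intermediate-conductance channel of blood and epithelial cells, had none in either library.

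Kcnn1, a further small-conductance channel of neurons, had 1.83 in replicate 1 and 1.42 in replicate 2, below the all-gene median in both. Its single promoter peak in each library was at a start inside the gene, and none was at the 5′ end. The part of its promoter peak outside exons is shown with a GC box and a CACCC box in capitals, the latter on the complementary strand of CCACCC, both in footprints seen in both libraries (mm10, chr8:70857014-70857160, minus strand).
Kcnn1 promoter: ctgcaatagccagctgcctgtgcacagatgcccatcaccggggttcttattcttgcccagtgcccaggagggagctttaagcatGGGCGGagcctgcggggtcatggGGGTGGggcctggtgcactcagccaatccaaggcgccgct

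The large-conductance channel gene Kcnma1 (chr14:23289431-24014491, minus strand) had a promoter peak of 1.57 in replicate 1 and none in replicate 2. Around its body of 725061 bp lay 28 and 29 peaks, the most of any member by the mean of both libraries. Its promoter in replicate 2 held a lowest false discovery rate of 0.000236 and 4 peaks of the broader set. Kcnt2, a sodium-activated channel, had 1.30 and 1.01, and its relative Kcnt1 had 1.19 in replicate 1 only. Kcnu1, a channel of sperm, had a low promoter peak in both libraries, 0.732 and 0.622.

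The 15 inward rectifiers had the same 11 genes called in both libraries and 4 in neither, with medians of 1.66 and 1.19. Kcnj2 (chr11:111066164-111076821, plus strand), a strong inward rectifier of neurons and muscle, led at 3.87 and 3.02, above the all-gene median in both. The 203 bases of its promoter peak that lie just before the gene are shown because 2 GC boxes, in capitals, fall in footprints seen in both libraries (mm10, chr11:111065961-111066163, plus strand).
Kcnj2 promoter: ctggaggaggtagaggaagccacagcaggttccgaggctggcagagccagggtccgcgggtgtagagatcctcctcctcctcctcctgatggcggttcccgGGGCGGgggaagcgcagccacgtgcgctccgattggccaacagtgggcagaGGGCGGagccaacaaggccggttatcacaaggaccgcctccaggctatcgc
The G-protein-gated subunits, through which many transmitters quiet neurons, were all called in both libraries. Kcnj9 (chr1:172320501-172329318, minus strand) had 2.55 and 1.84, Kcnj6 (chr16:94748636-94997701, minus strand) 2.24 and 1.46, and Kcnj3 1.78 and 1.27. The fourth subunit, Kcnj5, which is typical of the heart, had 0.401 and 0.461 and was lower in replicate 1 than in replicate 2. Kcnj6 had the most peaks around it of the inward rectifiers, 21 and 18.

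Kcnj4, a relative of Kcnj2 in forebrain neurons, had 1.86 and 1.27, and Kcnj12 of the same branch 1.35 and 0.760. Kcnj10, the main potassium channel of astrocytes, had 1.61 and 1.17. Its partner Kcnj16 had 0.519 and 0.468. The ATP-sensitive pore genes differed, with 1.66 and 1.19 at Kcnj11 and 0.607 and 0.315 at Kcnj8, the form of vascular cells. Kcnj1, a kidney channel, Kcnj13, Kcnj14 and Kcnj15 had no promoter peak, and no base near their starts was listed under the false discovery rate of 0.05 in either library.

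Two-pore-domain channels carry leak current. Of the 14 genes 11 had a promoter peak in replicate 1 and 8 in replicate 2, all 8 of them called in both, with medians of 1.32 and 1.19. Kcnk10 (chr12:98429437-98578310, minus strand), a mechanically gated leak channel, had 2.25 and 1.71, in each library near a start inside the gene. The part of its tallest promoter peak outside exons is shown with a CACCC box in capitals, on the complementary strand of CCACCC and in a footprint of both libraries (mm10, chr12:98573901-98574156, minus strand).
Kcnk10 promoter: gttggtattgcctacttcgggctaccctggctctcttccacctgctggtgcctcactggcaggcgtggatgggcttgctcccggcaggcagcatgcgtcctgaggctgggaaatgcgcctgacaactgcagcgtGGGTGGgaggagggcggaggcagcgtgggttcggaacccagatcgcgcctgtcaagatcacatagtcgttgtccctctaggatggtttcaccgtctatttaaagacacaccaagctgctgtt
Kcnk1 (chr8:125995170-126030685, plus strand) had 2.65 in replicate 1 and 1.23 in replicate 2, and that promoter peak was the only peak in its window in either library. Kcnk13 had 2.15 and 1.41, Kcnk12 1.93 and 1.16, and Kcnk9, an acid-sensitive channel of neurons, 1.32 and 1.22. The values were 1.2 and 0.753 at Kcnk2, 1.2 and 0.683 at Kcnk5 and 1.05 and 0.722 at Kcnk16.

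In replicate 1 alone, Kcnk4 had 1.60, Kcnk3, a second acid-sensitive channel, 0.814 and Kcnk6 0.701. Kcnk4 (chr19:6923966-6934515, minus strand), related to Kcnk10, had 29 and 10 peaks in its window, the most of this role. With the peaks near starts of other protein-coding genes left out, 10 and 1 remained, so most of them belonged by distance to its neighbours. Kcnk7, Kcnk15 and Kcnk18 had no promoter peak in either library.

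Auxiliary subunits ran from the tallest promoter of all members to several of the emptiest. Kcnab2 (chr4:152390742-152477871, minus strand), a beta subunit of Shaker-type channels, had 10.3 and 6.37, higher than 99.6% and 99.4% of all protein-coding promoters with a peak. That peak is also within 1000 bp of a start of Nphp4, so it cannot be assigned to 1 of the genes. The 30 bases shown hold a CCAAT box, in capitals, that lies in a footprint seen in both libraries (mm10, chr4:152477550-152477579, minus strand).
Kcnab2 promoter: gcgtgaagcatagCCAATaataggctgcta
Kcnab3 had 2.36 and 1.38 and Kcnab1 1.36 and 1.03, so all 3 beta subunits were called in both libraries. The Kcnip genes encode calcium-binding partners of A-type channels. Kcnip3 (chr2:127456498-127522094, minus strand) had 2.41 and 1.46 and Kcnip4 2.22 and 1.61. Kcnip2 with 0.995 and Kcnip1 with 0.538 were called in replicate 1 only. Kcnip1 (chr11:33629339-33993152, minus strand) nevertheless had 23 and 20 peaks around it, the most of the auxiliary genes, and Kcnip4 had 22 and 20.

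Beta subunits of the large-conductance channel were sparse. Kcnmb4, the form known from neurons, was called in both libraries at 1.02 and 0.753, Kcnmb2 in replicate 1 only at 0.638, and Kcnmb1, the smooth muscle form, and Kcnmb3 in neither. Of the small single-span subunits, Kcne3 had 1.27 and 0.921, and Kcne1, Kcne2 and Kcne4 had no promoter peak and no listed base in either library.

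Each of the 4 pacemaker genes was called in replicate 1, and 2 of them were called in replicate 2. Hcn4 (chr9:58823412-58863175, plus strand), best known from the cardiac sinus node and thalamus, had 1.37 and 1.19. In replicate 1 alone Hcn2 had 0.970 and Hcn3 had 0.889, the latter from 4 promoter peaks. Near the start of Hcn2 replicate 2 had a lowest false discovery rate of 0.00423 and 1 peak of the broader set, and near that of Hcn3 it had no listed base.

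Members without a promoter peak more often had weaker accessible bases near a start than all genes without one. Of the 22, 12 had no base listed under a false discovery rate of 0.05 near a start in either library (54.5%), against 82.7% of all genes without a promoter peak. The broader set had a promoter peak at 9 of the 22 in replicate 1 (40.9%) and at 5 in replicate 2 (22.7%), against 12.4% and 6.42% of all genes without a promoter peak. Of the 14 called in replicate 1 only, 10 had listed bases and a peak of the broader set in replicate 2 (71.4%). Over all genes called in replicate 1 only, 78.9% had listed bases and 73.0% a peak of the broader set, so the members were near the background. The 4 with neither were Kcng2, Kcnip1, Kcnk6 and Hcn3. At 3 of the 14, and at 135 of the 987 over all genes, a base was below 0.001 in replicate 2 although no stricter peak was called there.

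Where a member had a promoter peak, it often had several, with overlapping and nested peaks each counted. The mean number was 2.81 in replicate 1 and 1.97 in replicate 2, against 2.18 and 1.89 for all genes with one. More than 1 peak was present at 73.6% and 49.2% of members and at 60.3% and 52.0% of all genes, so by this share the members were above all genes in replicate 1 and below them in replicate 2. Footprints within the promoter peaks numbered 605 and 272. Per peak that was 3.0 and 2.34, below the 3.44 and 2.90 of all promoter peaks. Of these footprints, extended by 5 bp on each side, 10.9% and 10.3% held the GC box, against 15.0% and 15.1% over all genes, and 5.62% and 4.41% held the CACCC box, against 4.29% and 3.51%. The ETS string was in 0.331% and 0%, against 1.57% and 1.70%.

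Over the whole gene windows, promoters included, the members carried about as many peaks per base as all genes. From 20000 bp before to 20000 bp after the gene, counted by peak centre, the median was 7 peaks in replicate 1 and 5 in replicate 2, a mean of 6.00 ± 1.41 (SD, n = 2), against 4 and 4 for all genes. The members were also longer, with a median of 32346 bp against 17629 bp. By length class, members under 20000 bp had medians of 4 and 3 against 3 and 3, those from 20000 to 100000 bp 7 and 5 against 5 and 4, and those over 100000 bp 12 and 11 against 10 and 8. Over the merged windows of 14.5 Mb lay 792 and 609 peaks, which is 5.45 and 4.19 per 100 kb, against 5.10 and 4.03 over the windows of all protein-coding genes. The members' density was above that of all genes by less than the gap between the 2 libraries. The windows of 4 pairs of members overlapped, Kcnip1 with Kcnmb1, Kcnj1 with Kcnj5, Kcnj9 with Kcnj10 and Kcnj2 with Kcnj16, and their peaks count for both.

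**Figure D4:**
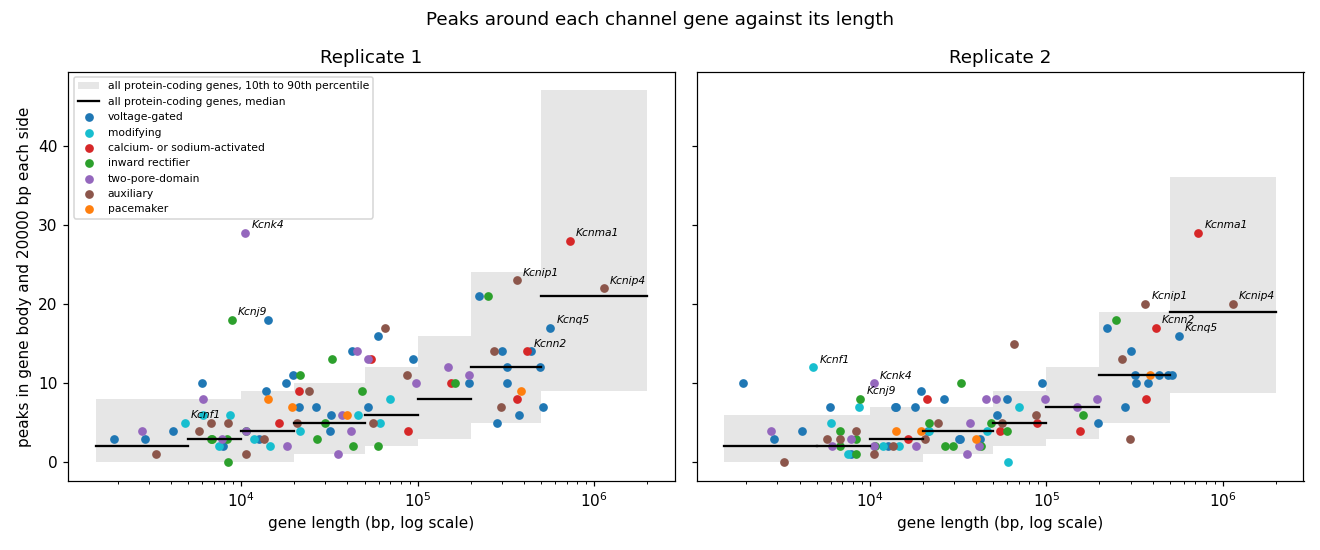
Peaks from 20000 bp before to 20000 bp after each channel gene, against its length (bp, log scale) in replicate 1 (left) and replicate 2 (right), coloured by role. Black bars are medians of all protein-coding genes of that length and grey boxes their 10th to 90th percentiles, and Kcnk4 and Kcnj9 stand above the box in replicate 1, with 29 and 18 peaks.

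Some short genes had more peaks than their length class. After Kcnk4 came Kcnj9 with 18 and 8, and at both genes the count in replicate 2 was well under that in replicate 1. Several long genes had like counts in both libraries, with 28 and 29 at Kcnma1, 23 and 20 at Kcnip1, 22 and 20 at Kcnip4 and 17 and 16 at Kcnq5. By place, 323 of the 792 peaks in replicate 1 were intronic (40.8%) and 192 lay near a member's own start (24.2%). In replicate 2 these were 270 of 609 (44.3%) and 114 (18.7%). No such split was made over the windows of all genes, so these shares cannot be called particular to the members. Peaks near the members' own starts had median heights of 1.00 and 0.852, and the 66 and 53 peaks in the same windows near starts of other protein-coding genes 3.04 and 2.24. The neighbours' promoters were thus the taller ones within the same stretches of DNA. Of the peaks near members' starts, 54.2% in replicate 1 overlapped a peak of replicate 2, and 91.2% in replicate 2 overlapped one of replicate 1, against 66.2% and 81.0% of all autosomal peaks. Within the members' windows the intronic peaks gave 64.4% and 77.4%, and those near starts of other protein-coding genes 71.2% and 88.7%. Peaks near the starts of all protein-coding genes, a closer background than all autosomal peaks, were not counted in this way.

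Peaks over 10000 bp from any annotated transcript start and present in both libraries numbered 181 across 54 members. Of these 139 were intronic, 9 exonic and 33 elsewhere, that is between genes or in noncoding genes. A like split over the windows of all genes was not made here either. Kcnma1 had 17, Kcnip1 14 and Kcnj6 11. The tallest lay past the 3′ end of Kcna6 (chr6:126702281-126702480), with 4.74 in replicate 1 and 3.37 in replicate 2. That is taller than any promoter peak of the Shaker-type genes. Next came a peak past the 3′ end of Kcnn3 at 4.70 and 2.67, whose nearest annotated start was that of Adar, 26152 bp away. Introns of Kcnq3 held 2 at 3.08 and 2.98 and at 3.23 and 1.93. Further ones were in introns of Kcnn3 with 3.54 and 2.37, Kcnk9 with 3.49 and 2.22 and Kcnq1 with 3.57 and 1.63. The peak in Kcnq1 stood in a gene with no promoter peak in either library.

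The sequences below are 3 of those distal peaks (mm10, plus strand), chosen after their values were seen because a footprint of both libraries held a listed motif, given in capitals. The peak past Kcnn3 (chr3:89688761-89688980) holds an AP-1 string (TGANTCA), a site type bound by Fos and Jun. The peak in Kcnk9 (chr15:72517121-72517280) holds a CACCC box on the complementary strand. That in Kcnq3 (chr15:66033981-66034180) holds a match to the consensus of CTCF, a factor that marks insulators and loop anchors.
Kcnn3 distal: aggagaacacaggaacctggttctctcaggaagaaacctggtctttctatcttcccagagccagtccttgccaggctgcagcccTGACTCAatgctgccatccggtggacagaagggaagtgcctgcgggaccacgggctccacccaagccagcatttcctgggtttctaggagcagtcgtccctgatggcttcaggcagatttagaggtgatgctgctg
Kcnk9 intron: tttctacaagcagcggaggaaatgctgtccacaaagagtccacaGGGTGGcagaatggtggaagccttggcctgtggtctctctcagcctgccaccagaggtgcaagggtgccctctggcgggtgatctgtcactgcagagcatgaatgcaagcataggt
Kcnq3 intron: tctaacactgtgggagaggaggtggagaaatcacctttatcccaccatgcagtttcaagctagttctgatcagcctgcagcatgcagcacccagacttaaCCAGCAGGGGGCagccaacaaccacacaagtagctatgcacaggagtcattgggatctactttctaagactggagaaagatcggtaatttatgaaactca
In 200 bases at each of the 181 shared distal peaks, the CTCF consensus was in 7.18%, against 8.47% of such peaks of the whole autosomal set. The AP-1 string was in 20.4% against 15.6%, and an RFX string (GTTGCCATG) in 3.87%, or 7 peaks, against 1.47%. The NEUROD E-box was in 27.1% and 27.6%.

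A list of 27 partner genes of these channels (anchoring and scaffold proteins, calmodulins and further auxiliary proteins) was counted in the same way. A promoter peak was present at 25 of 27 in replicate 1 and 21 in replicate 2. Those with one had medians of 1.97 and 1.58, also below the 3.10 and 2.20 of all protein-coding genes. Abcc9, a subunit of vascular ATP-sensitive channels, and Kcnrg had none in either library.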

How the data were processed

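DNase-seq of 2 libraries was used. Per the deposited descriptions, the files of a library came from filtered mm10 alignments of that library alone, without pooling. Aligner, peak caller, footprint caller and versions: not given in the sources used here. Peak height is the signal deposited by the authors. For single bases the authors deposited a q-value, the false discovery rate, where it was below 0.05. Every peak of the stricter (smaller) set holds a base below 0.001. The deposited footprints carry a constant p-value threshold of 0.01 and no score of their own.

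Genes and starts came from GENCODE M21 on GRCm38.p6, and promoters from RefSeq. Peaks overlapping by at least 1 bp were shared. Motifs in the printed sequences lie in a replicate 1 footprint, extended by 5 bp on each side, that overlaps a replicate 2 footprint. Such footprints are described as seen in both libraries. The members, roles, marker lists, partner list and motifs were chosen with earlier results of these data known. Members are named with their promoter heights or as having none; some genes this rule selects are not reported here but are in the counts. In each role the genes with the 2 tallest promoters and the one with the most peaks around it are described further, with those of the 10 tallest shared distal peaks that can be reported. Assignment of peaks to genes, density and motif search were tested on simulated data and gave the planted answers. Python 3.11.15, numpy 2.4.6 and pandas 2.3.3 were used. The design has 1 group, so no test was run and no p-value is given. Whether the libraries measure more than technical spread rests on the animal numbers. Alternatives were other promoter windows, starts, peak sets, flanks and each library left out. Reads and coverage were not analysed here.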

Additional observations from a re-analysis of the deposited data

How the results depend on the processing

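Of 32 values recomputed under another setting, 20 stayed within 1 SD of the 2 libraries (for the share in both, within the width of its 95% interval to 1 side) and 12 moved further. Both limits are wide. The SD comes from 2 values, 9.68 points for the promoter share, and the interval treats the 95 genes as independent. With the 5′ end of the gene only, 60.5% on average and 52.6% in both still counted as within them. Staying within them thus does not show that a value is unaffected. Other promoter windows, starts, peak sets and flanks were applied to the members only. How the members stand beside all genes under those settings was not tested. The larger peak set gave a promoter peak at 82.1% of members on average and 77.9% in both libraries, a median of 10 peaks per window and 8.40 per 100 kb. The strict peaks at or above their library's median height gave 53.7%, 46.3%, 3.5 and 2.90. With no flank the median was 2.5 peaks and the density 3.72 per 100 kb, and with 50000 bp on each side the median was 9.5. Without footprint extension 5.86% of promoter footprints held the GC box, against 10.6% with it, since fewer bases were searched, and for the 14 other motifs 6 shares moved. With 1 library left out, the promoter share was 62.1% to 75.8%, the median height 1.17 to 1.43, the window count 5 to 7 and the density 4.19 to 5.45 per 100 kb. Narrower and wider promoter windows, other start definitions and leaving out the auxiliary subunits changed the promoter share by less than the spread. No paired analysis was possible because there is 1 group. Depth is not known, so no precision can be given for single peaks.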
